A study of Mus musculus with 14 samples.

Results

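mmu-miR-423-5p and mmu-miR-423-3p (miR-423-5p and miR-423-3p hereafter) are the mature miRNAs cut from the opposite arms of the mouse miR-423 hairpin. They were taken from a table of 1695 mature miRNA names by exact match of the name, and these 2 names make up the whole selection. The counts came from small extracellular vesicles that mouse neutrophils released in culture. The vesicles were isolated with a commercial kit from primary Ly6G+ bone marrow cells of wild-type BALB/c female mice, whose age is not given in the sources used here. One group of 7 libraries came from cells kept for 48 h with DMSO, the solvent control, and the other 7 from cells kept for 48 h with 10 µM 27HC (27-hydroxycholesterol, a cholesterol metabolite). Nothing in the labels says whether replicates came from separate mice or cultures, so p-values measure only the spread between these libraries, which may be technical. The description of each library also holds a pair of running numbers, whose meaning is not stated. The comparison of 27HC with DMSO was made over all libraries and also within replicates 1 to 4 and within replicates 5 to 7, a split seen in earlier results of these data. What that split marks is not stated in the labels.

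A miRNA hairpin is cut by Drosha and Dicer into a short duplex, and one strand is usually retained in an Argonaute protein, where its seed pairs with target mRNAs, while the other strand is degraded more often. The arm that accumulates more can differ between tissues, and the ratio of the arms within a sample does not depend on how the sample is scaled. miR-423 is found in many tissues, miR-423-5p is a frequent constituent of vesicles and plasma, and miR-423-3p has been used as a reference in blood and vesicle measurements.

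The mature sequences, from RefSeq on GRCm38.p6, are shown because the results turn on how differently the products of a single hairpin were counted. Capitals mark the seed, bases 2 to 8.
miR-423-5p: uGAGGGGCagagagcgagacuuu
miR-423-3p: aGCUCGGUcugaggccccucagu
Both are 23 bases long. miR-423-5p is 56.5% G or C, and miR-423-3p is 65.2% G or C. G makes up 43.5% of miR-423-5p, the 16th highest share among the 201 tested names with a RefSeq sequence, whose median is 26.1%. Of the 1431 names in the table with a RefSeq sequence, miR-6921-5p alone has the seed of miR-423-5p, and it had 7 counts over all 14 libraries. No other name has the seed of miR-423-3p. GGAG, CCCU and GGCU, 4-base motifs described in miRNAs sorted into vesicles, were searched on the mature strand. miR-423-5p holds none of them, and miR-423-3p holds CCCU, which 10.4% of the tested names hold.

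The hairpin is shown to place the arms, which are in capitals.
miR-423 hairpin: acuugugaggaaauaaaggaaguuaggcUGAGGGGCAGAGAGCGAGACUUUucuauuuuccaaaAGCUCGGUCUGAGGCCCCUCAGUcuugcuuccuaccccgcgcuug
It spans chr11:77078064-77078172 on the minus strand of GRCm38, with the 5p arm at 77078122 to 77078144 and the 3p arm at 77078086 to 77078108. In the GENCODE M21 annotation it lies in the intron between exons 1 and 2 of Nsrp1 (transcripts Nsrp1-201 and Nsrp1-203), which encodes a nuclear speckle splicing regulator on the same strand, 263 bases from the gene's start. RNAfold gave the hairpin a minimum free energy of -51.9 kcal/mol. Each arm had 19 of its 23 bases paired, 17 of them with the other arm. The first 4 bases of both arms sat in the same number of pairs, 2 G-C and 2 A-U, so the predicted end pairing of the arms did not differ by that count.

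Library totals ran from 229324 to 871189 counts in replicates 1 to 4 and from 112914 to 252014 in replicates 5 to 7. The deepest library was DMSO replicate 3, and the next deepest DMSO library in the table held 400585 counts. The filter on low counts left 239 names for testing, with 99.4% of all counts. Both arms of miR-423 passed it. Both arms of miR-223 and miR-142a, listed here as neutrophil and myeloid miRNAs, were among the tested names. miR-142a is found across blood cell types, so this list is not specific to neutrophils. The summed level of the list was 116742 to 216664 CPM (counts per 1000000, scaled by edgeR's TMM method) in replicates 1 to 4 and 83291 to 135673 CPM in replicates 5 to 7. In pooled vesicle RNA, fewer vesicles of a kind and less of a miRNA in each vesicle cannot be told apart.

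miR-423-5p was the third most abundant miRNA of the vesicles by mean CPM, behind miR-16-5p at 404652 CPM and miR-223-3p at 131048 CPM. Its mean over the 14 libraries was 45997 ± 18445 CPM (SD), and miR-25-3p came next at 37926 CPM. In DMSO replicates 1 to 4 miR-423-5p stood at 33992, 28372, 17139 and 28748 CPM. In DMSO replicates 5 to 7 it stood at 46010.2, 65736 and 82148 CPM, each above all of the DMSO libraries numbered 1 to 4. In 27HC replicates 1 to 4 it stood at 33594, 51232, 42962 and 38966 CPM. In 27HC replicates 5 to 7 it stood at 44589, 74153 and 56321 CPM, so that the sets overlapped under 27HC through replicate 2. DMSO replicate 3, the lowest, held 12572 miR-423-5p counts, or 1.44% of its total (exact Clopper-Pearson 95% interval 1.42 to 1.47%), and there miR-423-5p was 10th in rank. DMSO replicate 7, the highest, held 24500 counts, or 9.72% (9.61 to 9.84%), and there it was 2nd. These intervals cover counting error only, and they are far narrower than the spread between libraries.

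miR-423-3p was a miRNA of middle rank, 48th by mean CPM, between miR-223-5p at 1841 CPM and let-7g-5p at 1727 CPM. In DMSO replicates 1 to 4 it stood at 1677, 1449, 1771 and 2219 CPM. In DMSO replicates 5 to 7 it stood at 1243, 1257 and 1904 CPM, so that the sets overlapped through replicate 7. In 27HC replicates 1 to 4 it stood at 2418, 2365, 2266 and 2071 CPM. In 27HC replicates 5 to 7 it stood at 1579, 1637 and 1287 CPM, all under the 27HC libraries numbered 1 to 4. The counts behind these levels ran from 155 in DMSO replicate 5 to 1299 in DMSO replicate 3. The plot of both arms by library shows the opposite placement of the replicate sets for the 2 arms.

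**Figure D1:**
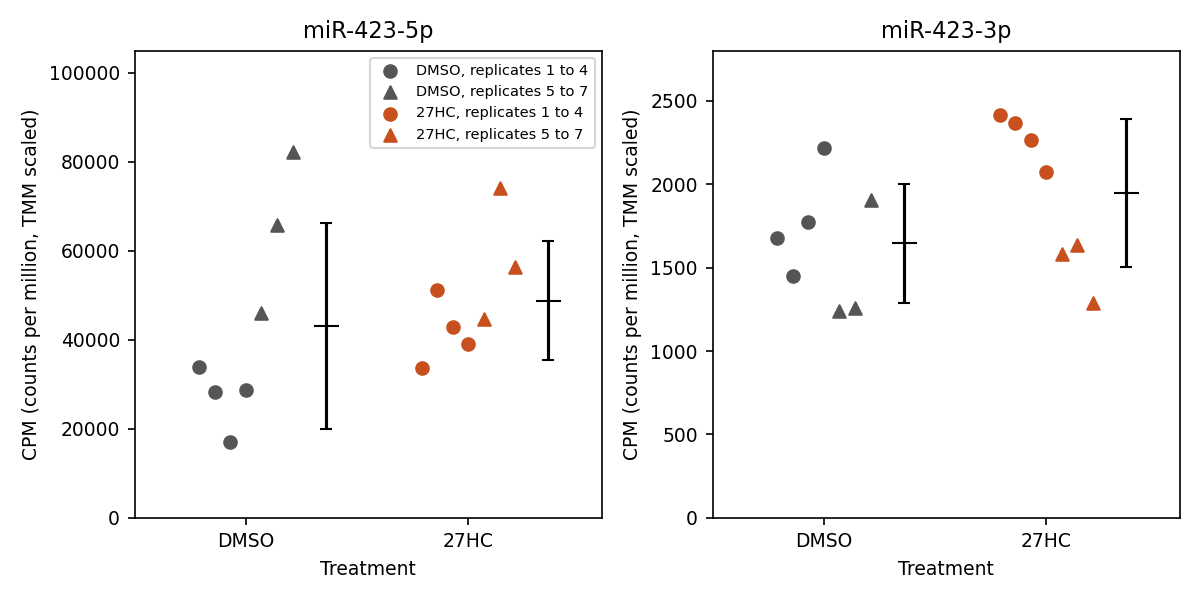
CPM of miR-423-5p (left) and miR-423-3p (right) in each library by treatment, with circles for replicates 1 to 4 and triangles for replicates 5 to 7; the bars give the mean and SD of 7 libraries. miR-423-5p ranges from 17139 to 82148 CPM with the triangles mostly high, and miR-423-3p ranges from 1243 to 2418 CPM with the triangles mostly low.

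Over all libraries, neither arm was called different between 27HC and DMSO. miR-423-5p averaged 43164 ± 23185 CPM in DMSO and 48831 ± 13447 CPM under 27HC (SD, n = 7 each), and all 27HC libraries lay within the DMSO range. edgeR put the change at 0.18 ± 0.29 (log2 fold, SE), with an adjusted p of 0.818. miR-423-3p averaged 1646 ± 357 CPM in DMSO and 1946 ± 443 CPM under 27HC, with 3 of 7 27HC libraries above the highest DMSO library. For this arm edgeR estimated 0.24 ± 0.16 on the log2 scale (SE, adjusted p = 0.430). The same test called 30 of the 239 tested names (12.6%), 9 higher and 21 lower under 27HC, so most of the miRNAs, like both arms, did not pass it. Groups that do not overlap in CPM were found for 13 of the 239 names (5.44%), and neither arm was among them. Leaving out single libraries moved the log2 fold change of miR-423-5p between 0.08 without DMSO replicate 3 and 0.46 without DMSO replicate 7, with the edgeR adjusted p never under 0.318. With the replicate set as a term, the change was 0.29 for miR-423-5p (edgeR adjusted p = 0.333) and 0.22 for miR-423-3p (edgeR adjusted p = 0.259). That fit called 39 of the 239 names.

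Within replicates 1 to 4, both arms were higher under 27HC. miR-423-5p averaged 27063 ± 7096 CPM in DMSO and 41689 ± 7430 CPM under 27HC (SD, n = 4 each), and 3 of 4 27HC libraries lay above the highest DMSO library. edgeR put the rise at 0.69 ± 0.19 (log2 fold, SE), with an adjusted p of 0.0304. miR-423-3p averaged 1779 ± 323 CPM in DMSO and 2280 ± 153 CPM under 27HC, again with 3 of 4 27HC libraries above the highest DMSO library. For this arm edgeR estimated a rise of 0.43 ± 0.13 on the log2 scale (SE, adjusted p = 0.0473). The groups thus overlapped for each arm, through replicate 1 for miR-423-5p and replicate 4 for miR-423-3p. The test called 42 of 242 names in this set (17.4%), 16 of them higher, so that calls were more frequent here than over all libraries. The summed level of miR-223 and miR-142a moved the other way in these libraries. It was 173137 to 216664 CPM in DMSO and 116742 to 149157 CPM under 27HC. Most of it was miR-223-3p, with means of 171477 CPM in DMSO and 122033 CPM under 27HC. Of the smaller members, miR-142a-5p also fell, from a mean of 3033 to 1448 CPM, while miR-223-5p rose from 1701 to 1990 CPM. Over all libraries edgeR called miR-142a-3p lower under 27HC (log2 fold change -1.53, adjusted p = 3.6e-05), and also miR-142a-5p (-0.74, adjusted p = 0.0223). Neither miR-223-3p (edgeR adjusted p = 0.406) nor miR-223-5p (edgeR adjusted p = 0.388) was called there. In replicates 1 to 4 the library totals ran from 265651 to 871189 counts in DMSO and from 229324 to 405902 under 27HC. With the log2 library total as a covariate, chosen after seeing the data, the change of miR-423-5p was 0.43 (edgeR adjusted p = 0.0140). The part of miR-223 and miR-142a in these changes was not tested. Both calls depended on single libraries and on scaling. With the replicate number as a block neither passed, at an edgeR adjusted p of 0.0509 for miR-423-5p and 0.107 for miR-423-3p. The call of miR-423-5p was lost without DMSO replicate 2, DMSO replicate 4, 27HC replicate 2 or 27HC replicate 3, with edgeR adjusted p from 0.0503 to 0.0918. The call of miR-423-3p was lost without any of the 8 libraries except DMSO replicate 4, with edgeR adjusted p up to 0.199. Under upper quartile scaling, chosen after seeing the data, the edgeR adjusted p was 0.0712 for miR-423-5p and 0.134 for miR-423-3p, and the median change of all tested names moved from 0.06 to -0.09.

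Within replicates 5 to 7, no difference passed the test for either arm. miR-423-5p averaged 64631 ± 18094 CPM in DMSO and 58354 ± 14887 CPM under 27HC (SD, n = 3 each). edgeR put the change at -0.13 ± 0.24 (log2 fold, SE), with an adjusted p of 0.847. miR-423-3p averaged 1468 ± 378 CPM in DMSO and 1501 ± 187 CPM under 27HC, a change of 0.04 ± 0.19 (log2 fold, SE; edgeR adjusted p of 0.960). No 27HC library of this set lay above the highest DMSO library for either arm. The test called 12 of 198 names here (6.06%). The sign of either value turned when single libraries were left out, to 0.064 for miR-423-5p without DMSO replicate 7 and to -0.14 for miR-423-3p without DMSO replicate 6.

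Whether 27HC acted on the arms to a different extent in each set was tested as an interaction. For miR-423-5p it was -0.77 on the log2 scale (SE 0.34, edgeR unadjusted p = 0.0363, adjusted p = 0.476), and for miR-423-3p it was -0.33 (SE 0.24, edgeR adjusted p = 0.554). The edgeR test called 0 of 239 names (0%), with 24 at an unadjusted p under 0.05. limma-voom called 0 and DESeq2 called 3. The effects of 27HC on the arms were therefore not shown to differ between the sets, although they were called in replicates 1 to 4 and not in replicates 5 to 7. The plot of fold changes sets the effects side by side.

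**Figure D2:**
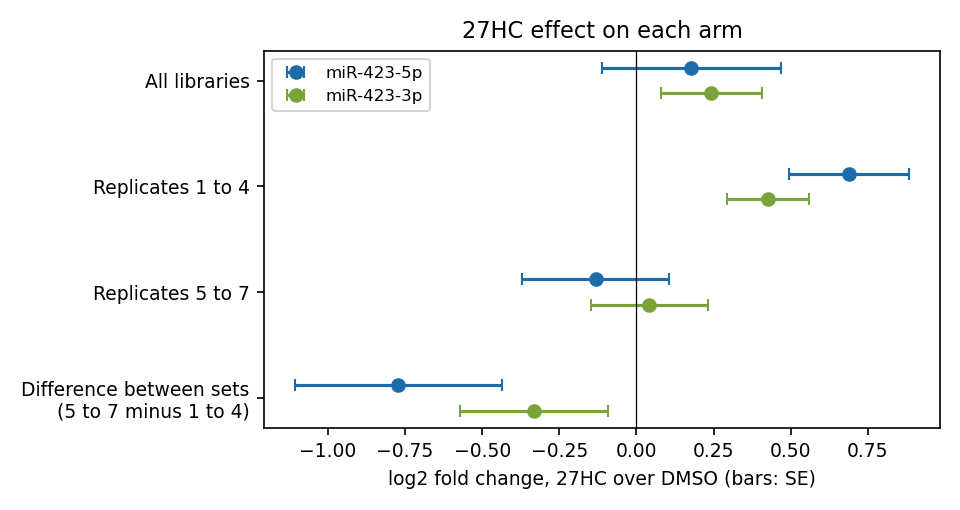
log2 fold change of 27HC over DMSO (horizontal axis) for miR-423-5p (blue) and miR-423-3p (green) over all libraries, within each replicate set, and as the difference between sets; points are edgeR estimates and bars their SE. Both arms sit above 0 in replicates 1 to 4, at 0.69 and 0.43, and near 0 in replicates 5 to 7, at -0.13 and 0.04.

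In DMSO, miR-423-5p differed more between the replicate sets than between the treatments in either set. Its mean was 2.39 times as high in replicates 5 to 7 as in replicates 1 to 4 of DMSO, and 1.40 times as high under 27HC, less than its 1.54-fold difference between treatments in replicates 1 to 4. miR-423-3p moved the other way, to 0.825 times in DMSO and 0.659 times under 27HC. On the log2 scale, averaged over treatments, the shift was 0.87 for miR-423-5p and -0.45 for miR-423-3p, beside a median of -0.08 over the 239 tested names. Ordered from the most upward shift, miR-423-5p was 32nd and miR-423-3p 209th of these names, and 21 names shifted upward by more than 1. In CPM neither arm separated the sets fully, which 16 of the 239 names did (6.69%). These shifts are a description, because the split was taken from the data. Within treatments the SD of log2 CPM of miR-423-5p was 0.61, the highest of the 50 most abundant names, whose median was 0.26. With treatment and set both accounted for, its SD was 0.37, still the highest of those 50 names, whose median was then 0.17. Over all 239 tested names that median was 0.35. The SD of miR-423-3p was 0.33 within treatments and 0.23 within treatments and sets.

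The arm ratio, counts of miR-423-5p per count of miR-423-3p in the same library, separated the replicate sets with no overlap. In DMSO replicates 1 to 4 it was 20.3, 19.6, 9.68 and 12.95, and in DMSO replicates 5 to 7 it was 37.0, 52.3 and 43.1. In 27HC replicates 1 to 4 it was 13.9, 21.7, 19.0 and 18.8, and in 27HC replicates 5 to 7 it was 28.2, 45.3 and 43.7. Every library numbered 5 to 7 thus had a higher ratio than every library numbered 1 to 4, whichever the treatment. The mean ratio was 15.6 ± 5.15 (n = 4) against 44.1 ± 7.69 (n = 3) in DMSO, and 18.3 ± 3.23 (n = 4) against 39.1 ± 9.43 (n = 3) under 27HC (SD). miR-423-5p was the major arm throughout, with 90.6 to 98.1% of the counts of both arms. How well the library kit captures each arm was not measured, so the ratio is one of counts.

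**Figure D3:**
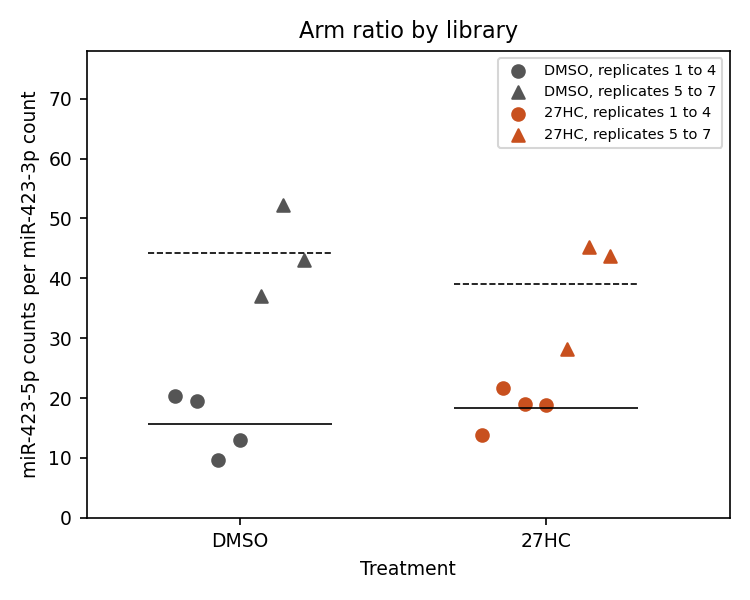
Counts of miR-423-5p per count of miR-423-3p (vertical axis) in each library by treatment, with circles for replicates 1 to 4 and triangles for replicates 5 to 7; solid lines are means of replicates 1 to 4 and dashed lines means of replicates 5 to 7. Every triangle, from 28.2 upward, lies above every circle, at most 21.7.

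Between treatments the arm ratio hardly moved relative to its spread, which over all libraries holds the difference between the sets. The mean log2 ratio was 4.64 ± 0.64 under 27HC and 4.56 ± 0.91 in DMSO (SD, n = 7 each), a difference of 0.08 (two-sided exact permutation p = 0.854). Within replicates 1 to 4 the difference was 0.28 (exact permutation p = 0.371, where the smallest p the design allows is 0.0286). In the libraries numbered 5 to 7 the difference was -0.19, with an exact permutation p of 0.7, where 0.1 is the smallest possible. Adjusted over these 3 tests, each exact permutation p was 0.854. The difference between the sets in the change of the ratio was -0.47 (exact permutation p = 0.233). The 27HC change in the arm ratio was thus within the spread of the libraries in each comparison.

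For comparison, 33 hairpins had both arms among the tested names, and 24 of them had more counts from the 5p arm. miR-423 had the 6th highest mean log2 ratio of 5p to 3p, 4.60, just under miR-10a at 4.95 and above miR-361 at 3.91. limma, fitted across these hairpins, called 4 of 33 ratios different between 27HC and DMSO (12.1%), namely miR-142a and miR-129b upward and miR-149 and miR-150 downward. miR-423 was not among them (log2 change 0.08, SE 0.36, limma adjusted p = 0.933). Between the replicate sets the log2 ratio of miR-423 was higher by 1.31 in replicates 5 to 7, the highest shift of the 33 hairpins and the 4th in absolute size. The ratios of 4 hairpins did not overlap between the sets (12.1%), upward for miR-423 and downward for miR-10a, miR-339 and miR-296. The median shift of the 33 hairpins was -0.12, and 11 of them shifted upward. A higher ratio of 5p to 3p in replicates 5 to 7 was therefore not general to the hairpins measured.

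**Figure D4:**
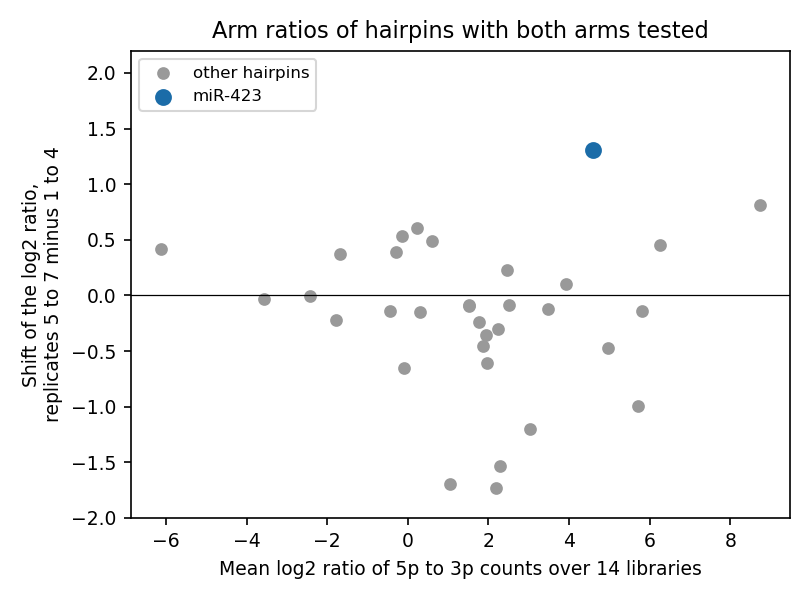
Shift of the log2 ratio of 5p to 3p counts from replicates 1 to 4 to replicates 5 to 7 (vertical axis) against its mean over the 14 libraries (horizontal axis) for the 33 hairpins with both arms tested. miR-423 (blue) has the highest shift, 1.31, at a mean log2 ratio of 4.60.

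Within replicates 1 to 4, with both treatments pooled, the arm ratio fell with the library total. DMSO libraries of this set were deeper on average, at 460230 counts against 295332 under 27HC. Treatment was not removed from the correlations below or from their permutations. Over the 8 libraries Pearson's r between log2 ratio and log2 total was -0.95 (exact permutation p = 0.00174, adjusted p = 0.0139 over 8 relations), and Spearman's rho was -0.90 (exact permutation p = 0.00456, adjusted p = 0.0365). Without DMSO replicate 3 and 27HC replicate 2, the libraries farthest from the median total, r was -0.87. The level of miR-423-5p itself fell with the total, with r = -0.91 (exact permutation p = 0.00828, adjusted p = 0.0331) and rho = -0.79 (exact permutation p = 0.0279, adjusted p = 0.112). Without those libraries its r was -0.60. For miR-423-3p r was -0.18 (exact permutation p = 0.628, adjusted p = 0.628) and rho was -0.07 (exact permutation p = 0.882). In this set the ratio and the 5p level were thus lower in deeper libraries, and the r of the ratio was the lowest of the 33 hairpins. That of the miR-423-5p level was the 5th lowest of 239 names, whose median r was 0.11.

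Within replicates 5 to 7, again with both treatments pooled, this relation was not seen. Over the 6 libraries r between log2 ratio and log2 total was 0.37 (exact permutation p = 0.425, adjusted p = 0.486) and rho was 0.43 (exact permutation p = 0.419). Without DMSO replicates 7 and 6 r was 0.01. miR-423-5p had r = 0.74 with the total (exact permutation p = 0.0778, adjusted p = 0.207), with a sign opposite to that in replicates 1 to 4. The part of depth in the difference between the sets was not tested.

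**Figure D5:**
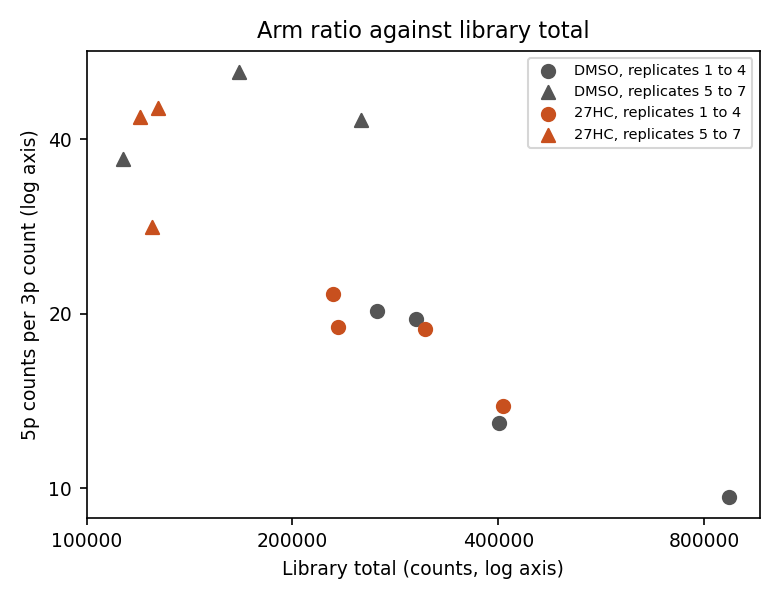
Counts of miR-423-5p per count of miR-423-3p (vertical log axis) against the library total in counts (horizontal log axis), with circles for replicates 1 to 4 and triangles for replicates 5 to 7. The circles run from 21.7 at the shallow end to 9.68 in the library of 871189 counts, and the triangles lie above them all.

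Over all libraries the arms did not vary together, whereas within each set, with both treatments pooled, their r was positive. With treatment means removed, Pearson's r between their log2 CPM over 14 libraries was -0.36 and Spearman's rho was -0.48. With the means of the sets removed too, r was 0.29. Within replicates 1 to 4 r was 0.52 (n = 8, exact permutation p = 0.217, adjusted p = 0.293) and rho was 0.52 (exact permutation p = 0.197), and r was 0.79 without DMSO replicates 1 and 2. Within replicates 5 to 7 r was 0.55 (n = 6, exact permutation p = 0.219, adjusted p = 0.293) and rho was 0.60 (exact permutation p = 0.242), and r was -0.55 without DMSO replicate 7 and 27HC replicate 6. Neither relation passed the test. Treatment means were not removed within the sets, and in replicates 1 to 4 both arms were called higher under 27HC. The part of treatment in these within-set values was not tested. The r over 14 libraries and the following correlations are descriptions over libraries that share their scaling. The 5 names most like miR-423-5p were miR-298-5p (r = 0.95), miR-1895 (r = 0.95), let-7b-5p (r = 0.92), miR-320-3p (r = 0.91) and miR-3472 (r = 0.90). All 5 were higher in replicates 5 to 7, by 0.61 for miR-320-3p to 2.91 for miR-1895 on the log2 scale. None of them was called different between 27HC and DMSO. With the means of the sets removed, r with miR-423-5p was 0.90 for miR-298-5p and 0.65 for miR-3472, the range of the 5. The 5 names most like miR-423-3p were miR-484 (r = 0.94), miR-25-3p (r = 0.92), miR-339-5p (r = 0.83), miR-30d-5p (r = 0.83) and miR-149-5p (r = 0.82). All 5 were lower in replicates 5 to 7, with log2 shifts from -0.13 for miR-25-3p to -0.72 for miR-339-5p. Both lists were picked by an r that holds the difference between the sets, so a shared direction of shift was partly built in. With the means of the sets removed, r with miR-423-3p was 0.87 for miR-484 and 0.63 for miR-149-5p, the range of the 5. Of these 5, miR-484 was called higher under 27HC (edgeR adjusted p = 0.0216) and miR-149-5p lower, with a log2 fold change of -0.92 and an edgeR adjusted p of 0.000512. The other 3 were not called.

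The names that stood closest to each arm in these libraries are shown with their seeds in capitals, because each arm resembled them more than it resembled the other arm.
miR-298-5p: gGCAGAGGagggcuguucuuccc
miR-1895: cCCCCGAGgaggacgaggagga
let-7b-5p: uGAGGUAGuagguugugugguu
miR-484: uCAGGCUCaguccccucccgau
miR-25-3p: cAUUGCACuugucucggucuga
None of these 5 sequences has the seed of either arm of miR-423. No other tested name with a RefSeq sequence has either seed, so this could not have come out otherwise.

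Both arms were also set against miRNAs often used as references. Of a list of 10 such names, all tested, 1 was called higher under 27HC (miR-484, log2 fold change 0.50, SE 0.14, edgeR adjusted p = 0.0216) and 1 lower (miR-103-3p, -0.61, SE 0.14, edgeR adjusted p = 0.00906), with a list median of 0.04 beside 0.01 for all tested names. The call of miR-484 was lost without DMSO replicate 6 (edgeR adjusted p = 0.0617) or without 27HC replicate 3 (edgeR adjusted p = 0.0542). In these same libraries miR-484 was the name most like miR-423-3p, and miR-320-3p was among the 5 most like miR-423-5p. Narrow ranges against these references were thus partly built in. Relative to miR-484, the log2 level of miR-423-3p stayed between -1.26 and -0.73 in all 14 libraries, and its mean differed by -0.01 between the sets. Relative to the same miRNA, miR-423-5p ranged from 2.47 to 4.72 and shifted by 1.30. Relative to miR-320-3p, miR-423-5p ranged only from 5.60 to 6.44 and shifted by 0.25, while miR-423-3p shifted by -1.06. The shift of miR-423-5p over the single references ran from 0.25 to 1.42, so that it was upward against each of them but differed in size with the reference taken. That of miR-423-3p ran from -1.06 to 0.11. Against each reference the shifts of the arms differ by 1.31, the shift of the log2 arm ratio, because the reference cancels. The gap between the arms here is therefore no further result.

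Markers of other sources were low beside miR-423-5p, and some moved with the sets. The summed level of 2 liver miRNAs, led by miR-122-5p, was 1900 to 3307 CPM in replicates 1 to 4 and 3183 to 4587 CPM in replicates 5 to 7. The 3 muscle miRNAs summed to 134 to 1217 CPM and 386 to 1972 CPM, and the 6 endothelial and stromal miRNAs to 974 to 2037 CPM and 1229 to 2365 CPM. The 4 erythroid miRNAs summed to 731 to 1126 CPM and 505 to 1102 CPM, and the 2 lymphoid miRNAs to 156 to 398 CPM and 148 to 273 CPM. No listed marker was at 0 over the whole series. The mean liver sum was higher in replicates 5 to 7 in both treatments, 3838 against 2780 CPM in DMSO (first value replicates 5 to 7) and 3439 against 2782 CPM under 27HC. The endothelial and stromal sum was also higher on average in both treatments, at 1718 against 1495 CPM and 1941 against 1310.2 CPM. The muscle sum was lower in DMSO, at 731 against 803 CPM, and higher under 27HC, at 1071 against 683 CPM. The part of these sources in the shift of miR-423-5p was not tested.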

How the data were processed

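The miRNeasy Micro kit supplied vesicle RNA for 14 QIAseq miRNA libraries, per the labels' protocols; that kit adds molecular tags. The authors deposited raw counts per mature miRNA; the submitters' processing notes name GRCm39 (mm39), R 4.1.2, edgeR and limma. The aligner, the rule for reads that match several miRNAs and whether tags were counted are not given in the sources used here. Positions come from GRCm38, since the table holds none, and RNAfold 2.7.2 folded the hairpin.

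Counts were tested with edgeR 4.0.16 (R 4.3.3; TMM scaling, filterByExpr with a minimum count of 10 and total of 15, quasi-likelihood test, Benjamini-Hochberg adjustment over all tested names, threshold 0.05). Arm ratios used counts plus 0.5, exact permutation tests over libraries and limma 3.58.1 over hairpins. DESeq2 1.42.0 and limma-voom were alternatives. Log2 CPM used a prior count of 2. Named miRNAs are the neighbours in rank, the 5 most alike by Pearson's r, the reference list and the marker lists. The members and lists were chosen with earlier results of these data known. On simulated counts for 27HC against DMSO with 219 to 238 names tested per run, 270 of 274 names changed 4-fold were called. Of the calls, 7.85% were unchanged names, and with no change 0 were called. The simulation had 7 libraries per group and no replicate sets. It gives no rate for smaller changes or for tests within a set.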

Additional observations from a re-analysis of the deposited data

Results flagged for a closer look

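Of 12 groups of library values examined, 1 held a library far from the others, where chance gives about 1 in 20. The total of DMSO replicate 3 was 871189 counts, and the next highest DMSO total was 400585, a gap of 0.621 of the group's range. The same library had the lowest miR-423-5p level, 17139 CPM, and the lowest arm ratio, 9.68.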

How the results depend on the processing

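Of 275 alternatives over 13 results, 240 kept the direction and the side of the threshold. With the log2 library total as a covariate, the change of miR-423-5p over all libraries turned to -0.036 (edgeR adjusted p = 0.954). In replicates 1 to 4 the call of miR-423-3p was lost with RLE size factors (0.40), with no filter (0.23), and, chosen after seeing the data, with the library total as a covariate (0.46), upper quartile scaling (0.28) and library totals alone (0.42). That of miR-423-5p was lost with upper quartile scaling (0.53) and library totals alone (0.65), also chosen after seeing the data. With the library total as a covariate it kept its call at 0.43 (edgeR adjusted p = 0.0140). In replicates 5 to 7 the change of miR-423-5p turned to 0.18 with the library total as a covariate, and that of miR-423-3p to -0.12 with library totals alone (there the median of all names moved to -0.12 from 0.03). With library totals alone the median of the difference between sets moved to -0.15 from 0.04. The cause was not tested. Without the filter on low counts, miR-484 had an edgeR adjusted p of 0.434.

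Leaving out each library in turn gave 21 to 34 called names over all libraries, with 0.08 to 0.46 for miR-423-5p and 0.17 to 0.39 for miR-423-3p. In replicates 1 to 4 the ranges were 0.46 to 0.79 and 0.29 to 0.55, and in replicates 5 to 7 they were -0.39 to 0.064 and -0.14 to 0.27. The log2 arm ratio difference ran from -0.14 to 0.27, negative without DMSO replicate 3, DMSO replicate 4, 27HC replicate 6 or 27HC replicate 7.

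Same-numbered libraries deviated together with correlations of 0.07 to 0.60, all positive, and 6 of 14 libraries correlated best with their own number. The labels do not say that the numbers mark pairs, so the main tests did not use them. Whether they are pairs is not known. With the replicate number as a block, the changes in replicates 1 to 4 were 0.72 for miR-423-5p (edgeR adjusted p = 0.0509) and 0.44 for miR-423-3p (edgeR adjusted p = 0.107). Depth limits miR-423-3p most, at 155 counts in the lowest library.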
